A study of Mus musculus with 42 samples.

Results

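Feedback regulators of macrophage activation, 10 in number, were followed here by RNA polymerase II (Pol II) and by H3K27ac, the acetyl mark on lysine 27 of histone H3 that is carried by promoters and enhancers in use. They are Zfp36, Zfp36l1, Zfp36l2, Zc3h12a, Dusp1, Dusp2, Dusp5, Socs1, Socs3 and Cish, chosen by symbol, and they are 10 of the 21000 protein-coding genes that were measured. The material was chromatin immunoprecipitation with sequencing from bone marrow-derived macrophages (BMDMs) of male C57Bl6/J mice aged 6 to 12 weeks, grown for 7 days in medium conditioned by L929 cells. WT cells came from wild-type mice and KO cells from mice without Nur77, the nuclear receptor encoded by Nr4a1. Both were left untreated (0 h) or given 100 ng/ml of lipopolysaccharide (LPS), the bacterial cell wall component, for 1 or 18 h, so that there were 6 groups, each with 3 libraries for either antibody and 1 input. The KO was made in the whole body by a Cre under the CMV promoter, and the genotype label of the KO libraries reads cre, although the study's methods describe mice that had lost the Cre. Whether Cre has a part in any difference between KO and WT was not tested.

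These genes act at successive levels of the response. Zfp36 (tristetraprolin), Zfp36l1 and Zfp36l2 are zinc finger proteins that bind AU-rich elements in cytokine mRNAs and send them for decay, and Zc3h12a (Regnase-1) is an endonuclease that cuts stem-loops in the same class of transcripts. Dusp1, Dusp2 and Dusp5 are nuclear phosphatases that switch off MAP kinases: Dusp1 acts mainly on p38 and JNK, and Dusp5 on ERK. Socs1, Socs3 and Cish belong to the suppressors of cytokine signalling, which are induced by JAK-STAT signals and block the receptors or kinases upstream of them. Many of them are induced within the first hour of LPS and so shape how long the response lasts.

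Pol II was read as normalized tags, the sequenced fragments per 10 M tags of the library (M for mega) that fall inside enriched regions, from 500 bp before the start of a gene to 500 bp past its end. The H3K27ac value is the same within 2500 bp of the start. Gene models were the RefSeq Select transcripts of GRCm38.p6, the assembly behind mm10. No other protein-coding gene lay in any of the 10 Pol II windows. Zfp36 runs over chr7:28376784-28379228 on the minus strand, Zfp36l1 over chr12:80107760-80113013 (minus), Zfp36l2 over chr17:84183924-84187947 (minus) and Zc3h12a over chr4:125118414-125127881 (minus). The phosphatases lie at chr17:26505591-26508472 (Dusp1, minus), chr2:127336159-127338377 (Dusp2, plus) and chr19:53529145-53541809 (Dusp5, plus). Socs1 is at chr16:10783808-10785536 (minus), Socs3 at chr11:117966079-117969366 (minus) and Cish at chr9:107296659-107302784 (plus).

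The RefSeq table of promoters held 9 of the 10 members, and stretches upstream of the starts are shown for the genes whose Pol II differed in opposite directions between the genotypes at 1 h (Dusp2 and Dusp5) and for 3 early genes with a motif named here. Positions count back from the base before the start, which is -1, and coordinates are on GRCm38.p6. In Dusp1 the capitals mark the palindrome TGACGTCA of cAMP-responsive factors (positions -143 to -136), in Dusp2 the GC boxes (GGGCGG on either strand), in Dusp5 and Zfp36 the CArG boxes bound by serum response factor, and in Socs3 the letters TTCNNNGAA bound by STAT factors (positions -154 to -146).
Dusp1 (chr17:26508520-26508722, minus strand): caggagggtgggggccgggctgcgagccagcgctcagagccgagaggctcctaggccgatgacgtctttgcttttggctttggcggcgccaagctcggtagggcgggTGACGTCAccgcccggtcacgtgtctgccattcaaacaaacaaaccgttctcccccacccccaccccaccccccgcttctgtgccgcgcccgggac
Dusp2 (chr2:127335909-127336158, plus strand): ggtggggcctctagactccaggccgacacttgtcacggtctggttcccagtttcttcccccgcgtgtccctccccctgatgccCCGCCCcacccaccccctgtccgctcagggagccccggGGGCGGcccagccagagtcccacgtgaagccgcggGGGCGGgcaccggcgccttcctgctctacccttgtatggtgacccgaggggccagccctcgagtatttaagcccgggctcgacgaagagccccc
Dusp5 (chr19:53528895-53529108, plus strand): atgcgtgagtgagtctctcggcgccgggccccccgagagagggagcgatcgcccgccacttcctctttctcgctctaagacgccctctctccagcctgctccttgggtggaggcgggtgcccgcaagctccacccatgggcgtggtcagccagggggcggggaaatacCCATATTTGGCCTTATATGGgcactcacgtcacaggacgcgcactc
Socs3 (chr11:117969503-117969531, minus strand): agaaaccagccTTCTTAGAAgggaggggg
Zfp36 (chr7:28379268-28379295, minus strand): caggccgccCCATAAAAGGagaaagctc

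Over the 250 bases upstream of the start, on both strands, CArG boxes were found in 2 of the 9 members with a promoter (Zfp36 and Dusp5) and in 1.39% of 16499 promoters. The Dusp5 boxes stand next to each other at -82 to -73 and -72 to -63. GGGCGG, marked above only in Dusp2, was in 8 of the 9 members, Dusp1 and Dusp5 among them, and in 45.4% of promoters. TGACGTCA was in 1 member, Dusp1, and in 2.13% of promoters, and TTCNNNGAA in 2 (Zfp36 and Socs3) and 6.65%. The Nur77 response element AAAGGTCA was in none of the 9 and in 1.19% of promoters, and AP-1 (TGANTCA with C or G at N) and NF-kB letters were in none of the 9 and in 3.99% and 4.16%. Within 2500 bp of the start, searched in the genome for all 21000 genes and all 10 members, AAAGGTCA was found once, 1987 bases inside Zc3h12a, against 21.7% of genes with at least 1 match. The only RefSeq transcript of the gene has no exon there, so it lies in an intron, and it is shown because it is the only match of this element at any member, with capitals on its reverse complement as read along the gene.
Zc3h12a (chr4:125125876-125125905, minus strand): ctaaccagctgTGACCTTTtggtcagatct

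Within the same 2500 bp, AP-1 letters were in 7 members and in 54.3% of genes. TTCNNNGAA was in 9 members and in 79.6% of genes, with 8 matches at Cish. CArG boxes were in 4 members and in 22.8% of genes. NF-kB letters, on both strands, were in 6 members and in 43.7% of genes, and Dusp2 held 6 matches, some of them overlapping, all upstream of its start. A match of letters describes the sequence only.

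Depth was 21.7 to 36.1 M tags in the Pol II libraries, 13.5 to 55.4 M in the H3K27ac libraries (13.5 to 31.1 M in WT and 23.6 to 55.4 M in KO) and 25.6 to 45.3 M in the inputs. All 18 Pol II and 15 of 18 H3K27ac libraries correlated best with their own group. Among the H3K27ac libraries, the one labelled KO replicate 1 at 1 h followed the WT 1 h mean (r = 0.983 across 10399 genes) more closely than the other KO 1 h libraries (r = 0.914), and the library labelled KO replicate 1 at 18 h had r = 0.917 with the others of its group, where pairs of replicates in the 4 groups without these libraries had r of 0.986 or above. The other KO libraries at 18 h had r of 0.976 with their group and 0.983 or above with the WT 18 h mean. The labels of both libraries are therefore in doubt. For the 18 h library, no other group's mean was closer than that of its own group (r = 0.913 with WT 18 h). Both libraries bear on the H3K27ac means of KO at 1 and 18 h. The H3K27ac differences of named members between KO and WT at 1 h, and the counts of members, are given with and without them. Nr4a1 had Pol II values of 150.2, 144 and 157 in WT and 73.1, 60.1 and 56.2 in KO at 0 h, a log2 change of -1.14 ± 0.14 (SE, adjusted p = 3.4e-05) in limma, so KO was lower there without being at 0. Within 500 bp of its start the change was -0.08 (adjusted p = 0.81). At 1 h Nr4a1 stood at 23.4, 23.0 and 22.4 in WT and 23.5, 39.0 and 25.8 in KO, and at 18 h it was listed at 0 in all 6. All 8 macrophage markers had Pol II in every library, while Cd3e, Cd8a, Ly6g, Elane, Mpo, Col1a1 and Col1a2, which mark T cells, neutrophils and fibroblasts, were listed at 0 in all of them. Other markers of such cells were not at 0: Cd3d (median 59.9), Cd4 (17.7) and the B cell gene Cd79a (37.2) were above 0 in all 18 libraries, Pdgfrb in 16, Ms4a1 in 14 and S100a8 in 10. The T cell list summed to 118 to 128 in WT at 0 h, 26.4 to 28.8 at 1 h and 114 to 121 at 18 h. In KO it was 87.5 to 122, 33.6 to 45.0 and 68.4 to 73.9. The B cell list was 27.4 to 38.1 in WT and 43.2 to 60.0 in KO at 1 h, and 88.5 to 103.7 and 64.7 to 66.4 at 18 h. The neutrophil list was 15.4 to 16.6 in WT and 38.1 to 43.6 in KO at 0 h. The part of these lists in the changes and differences below was not tested. Inputs over the members' windows had a median of 2.07% of the Pol II value and 2.43% of the H3K27ac value of the same group. The KO input at 18 h stood apart, with 27554 regions where the others had 64725 to 108461, and was at 0 over 9 of the 10 Pol II windows. With inputs subtracted, all genes in Pol II between KO and WT at 18 h went from 7.27% higher and 12.7% lower to 30.9% and 6.14%, while the members stayed at 2 called. Nothing in the labels says that replicates were separate animals, so p-values measure the spread between these libraries, and in bulk chromatin fewer cells with a signal and less signal per cell cannot be told apart.

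In resting WT cells the members covered a wide range of Pol II. Per kb of window, Zfp36l2 was highest at 401 ± 32.3 normalized tags (mean ± SD, n = 3), followed by Dusp1 at 295 ± 18.1, Zfp36 at 203 ± 13.6, Zfp36l1 at 194 ± 20.7 and Zc3h12a at 114 ± 7.14. Dusp5 (60.0 ± 5.54), Dusp2 (59.3 ± 1.64) and Socs1 (36.7 ± 1.4) were lower, and Socs3 (5.47 ± 1.49) and Cish (1.25 ± 0.372) were near the limit of region detection. Zfp36 and Zfp36l1, and Dusp5 and Dusp2, differed by less than their spread. One hour into LPS the order in WT began with Dusp1 at 654 ± 31.0 per kb, Socs3 at 603 ± 13.5 and Dusp2 at 522 ± 24.2, while Zfp36l2 had dropped to 45.3 ± 1.46.

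After 1 h of LPS, Pol II rose at 8 of the 10 members and fell at 2 in WT, and the same counts held in KO. Of all genes tested, 18.6% were called higher and 68% lower in WT, and 20.8% and 61.5% in KO. With each library centred on its median gene the members' counts were again 8 and 2 in both genotypes, beside 36.9% and 38.1% of all genes in WT and 35.3% and 39.3% in KO. A call is an adjusted p under 0.05 in limma on log2(normalized tags + 10) with Benjamini-Hochberg adjustment over all genes tested, and all changes below are on this scale, which understates the change of low genes. The median of all genes tested moved by -0.82 in WT and -0.61 in KO, and the members' median was 0.92 and 0.94. The macrophage markers summed to 22738 to 26411 in WT at 0 h and 31940 to 33101 at 1 h, and the 3 dendritic cell markers to 248 to 316 and 1133 to 1349, nearly all of it at Xcr1, with Flt3 at 0 in WT at 1 h, and their part in these changes was not tested.

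The Zfp36 family split at 1 h. Zfp36 had 646, 732 and 722 normalized tags in the 3 WT libraries at 0 h and 1135, 2034 and 1218 at 1 h. All 1 h values were above all resting ones, with a log2 change of 1.00 ± 0.20 (SE, adjusted p = 0.00016), and replicate 2 at 1 h stood apart. Its paralogues went the other way. Zfp36l1 fell from 1098, 1355 and 1195 to 512, 504 and 513, a log2 change of -1.23 ± 0.08 (SE, adjusted p = 5.3e-11). Zfp36l2 fell from 1963, 1883 and 2196 to 226, 221 and 235, 8.86-fold lower by the group means and -3.09 ± 0.08 (SE, adjusted p = 2.2e-16) on the log2 scale. In KO both paralogues fell as well, Zfp36l1 by a log2 change of -0.98 ± 0.08 (SE, adjusted p = 1.5e-09) and Zfp36l2 of -2.74 ± 0.08 (SE, adjusted p = 1.2e-15). Zc3h12a rose evenly, from 1112, 1243 and 1238 to 2207, 2117 and 2116 in WT and from 1239, 1224 and 1208 to 2226, 2105 and 2140.3 in KO. The change at Zc3h12a was 1.79-fold in WT and 1.76-fold in KO.

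All 3 phosphatase genes rose. Dusp1, already well occupied at rest, went from 1071, 1149 and 1212 to 2423, 2531 and 2663 in WT, a log2 change of 1.14 ± 0.13 (SE, adjusted p = 1.7e-07). Dusp2 had the largest gain of the 3, from 189, 187 and 197 to 1648, 1623 and 1769, 8.8-fold, with a log2 change of 3.07 ± 0.08 (SE, adjusted p = 1.3e-16). In KO its values were 198, 202 and 164 at rest and 1217, 1190.3 and 1197 at 1 h, 6.38-fold. Dusp5 moved less in WT, from 733, 867 and 861 to 1204, 1185 and 1187 (0.54 ± 0.09 SE, adjusted p = 3.7e-05), and more in KO, from 792, 751 and 810.2 to 1722, 1579 and 1670.0 (1.07 ± 0.09 SE, adjusted p = 8.1e-09).

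The SOCS genes held the steepest changes. Socs3 had 16.3, 25.4 and 28.6 normalized tags in resting WT cells, in regions that covered between 14.6% and 42.3% of the gene window across the 6 resting libraries, and 2584, 2529 and 2645 after 1 h, when the region covered all of it. The log2 change was 6.30 ± 0.13 (SE, adjusted p = 1.3e-17) in WT and 6.32 ± 0.13 (SE, adjusted p = 1.3e-17) in KO, and the ratio of the group means was 110.3 in WT. Cish started lower still, at 6.77, 11.9 and 8.07, and reached 519, 511 and 560.0, a log2 change of 4.84 ± 0.14 (SE, adjusted p = 1.3e-15). Socs1 changed least of the 3 at this time, from 103, 102 and 95.9 to 178, 179.9 and 178 in WT (0.78 ± 0.11 SE, adjusted p = 4.1e-06) and from 115, 125 and 97.3 to 171, 141 and 163 in KO (0.46 ± 0.11 SE, adjusted p = 0.001). The Socs1 rise in KO was not kept within 500 bp of its start, where the change was -0.17.

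**Figure D1:**
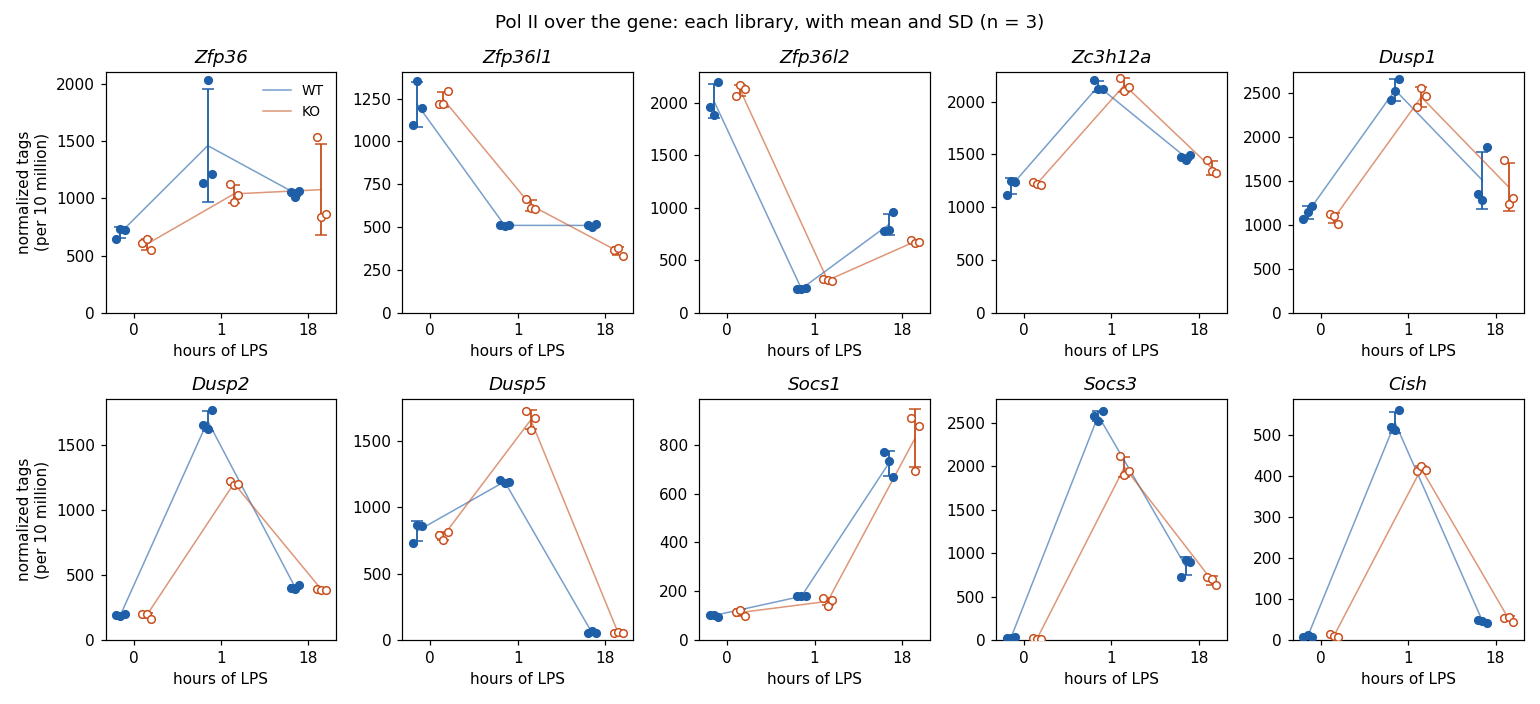
Pol II over each of the 10 genes, in normalized tags per 10 M tags (y axis, from 0), against hours of LPS (x axis, categories). Points are libraries, filled for WT and open for KO, and bars are mean ± SD over 3 libraries. Socs3, Cish and Dusp2 peak at 1 h, Socs1 at 18 h, and Zfp36l1 and Zfp36l2 are highest at rest.

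By 18 h most members that had risen stood below their 1 h level, and Socs1 stood far above it. Against 0 h, 7 members were called higher and 3 lower in WT, where 33.2% and 33.3% of all genes were, and the counts in KO were again 7 and 3, beside 28.3% and 41.8%. Quantile normalization left 4 higher and 3 lower in WT (all genes 33.2% and 34.9%), without Zfp36, Zc3h12a and Dusp1, and 5 and 3 in KO (all genes 32.7% and 36.6%), without Zc3h12a and Dusp1. Against 1 h, 2 were higher and 6 lower in WT (all genes 65.9% and 18.8%), and 2 higher and 7 lower in KO (all genes 54.8% and 24.5%). With median centring or quantile normalization all 10 were called in WT, 2 higher and 8 lower, beside 35.9% and 40.3% of all genes with centring. The comparisons with 0 h and with 1 h share libraries.

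Socs1, the feedback inhibitor of JAK kinases, was the late gene: 769.5, 736 and 670.0 in WT and 912, 692 and 878 in KO, above every 1 h value. Its change from 0 h was 2.74 ± 0.11 (SE, adjusted p = 3.5e-13) in WT and 2.77 ± 0.11 (SE, adjusted p = 2.1e-13) in KO. Socs3 stayed raised at 728, 924 and 898 in WT, 3.04-fold below its 1 h mean and 36.3-fold above rest. Cish returned most of the way, to 48.9, 47.0 and 42.2 in WT, in regions of 1.82 to 2.08 kb over both genotypes, where the 1 h regions spanned 12.5 to 13.0 kb. Cish was 11.5-fold below its 1 h mean and 5.17-fold above rest.

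Dusp5 fell far below its resting level. It had 51.0, 64.5 and 48.7 normalized tags in WT and 52.1, 57.8 and 48.8 in KO at 18 h, and the log2 change from 0 h was -3.69 ± 0.09 (SE, adjusted p = 5.3e-16) in WT and -3.66 ± 0.09 (SE, adjusted p = 3.6e-16) in KO. No library at 18 h came near any at 0 or 1 h. Dusp2 kept a part of its gain, at 401, 389 and 420.3 in WT and 390.3, 386 and 387 in KO, 2.11-fold and 2.06-fold above rest. Zc3h12a was at 1476, 1449.7 and 1493 in WT, a small change from rest of 0.30 ± 0.06 (SE, adjusted p = 0.00014) that turned to -0.03 under quantile normalization, and in KO 0.16 ± 0.06 (SE, adjusted p = 0.016) turned to -0.08. The KO change was not called without KO replicate 1 at 18 h either (0.12, adjusted p = 0.086). Zfp36l2 was at 779, 783 and 958 in WT, between its 0 and 1 h values. Zfp36l1 was at 513, 501 and 515 in WT, overlapping its 1 h values and called lower than 1 h only on the centred and quantile scales, and at 367, 375 and 331 in KO, below every 1 h value.

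Within a group, the high values of Zfp36 and Dusp1 lay in libraries where the region found over them was narrow. The Zfp36 region was 32.1 to 35.8 kb wide in 16 of 18 Pol II libraries and took in the starts of 3 other genes, and 17.9 and 18.5 kb wide, with 1 other start, in KO replicate 1 at 18 h and WT replicate 2 at 1 h. The tags of a region are shared evenly over its length, and these are the libraries with the highest values, 1536 and 2034. Leaving out WT replicate 2 at 1 h took the Zfp36 change at 1 h in WT from 1.00 to 0.74 and its difference between KO and WT at 1 h from -0.44 to -0.18. Dusp1 had regions of 9.34 kb and 9.62 kb in WT replicate 3 and KO replicate 1 at 18 h, with values of 1887 and 1746, and 14.7 to 15.0 kb in the other 18 h libraries, with values of 1242 to 1352. Its rise at 18 h, 0.38 ± 0.13 (SE, adjusted p = 0.014) in WT and 0.39 ± 0.13 (SE, adjusted p = 0.011) in KO, was no longer called without WT replicate 3 (0.21, adjusted p = 0.12) or without KO replicate 1 (0.24, adjusted p = 0.086), nor under quantile normalization (0.05 and 0.16). The resting regions of Dusp1 were 9.13 to 9.74 kb wide, so that without those libraries wide regions at 18 h are set against narrow ones at rest. Zfp36 at 18 h had 1056, 1015 and 1066 in WT, in regions of 34.4 to 35.3 kb, and 1536, 833 and 863 in KO. Its change from 0 h was 0.57 ± 0.20 (SE, adjusted p = 0.018) in WT, not called under quantile normalization (0.27, adjusted p = 0.26), and 0.78 ± 0.20 (SE, adjusted p = 0.0023) in KO, which was 0.50 (adjusted p = 0.017) without KO replicate 1.

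**Figure D2:**
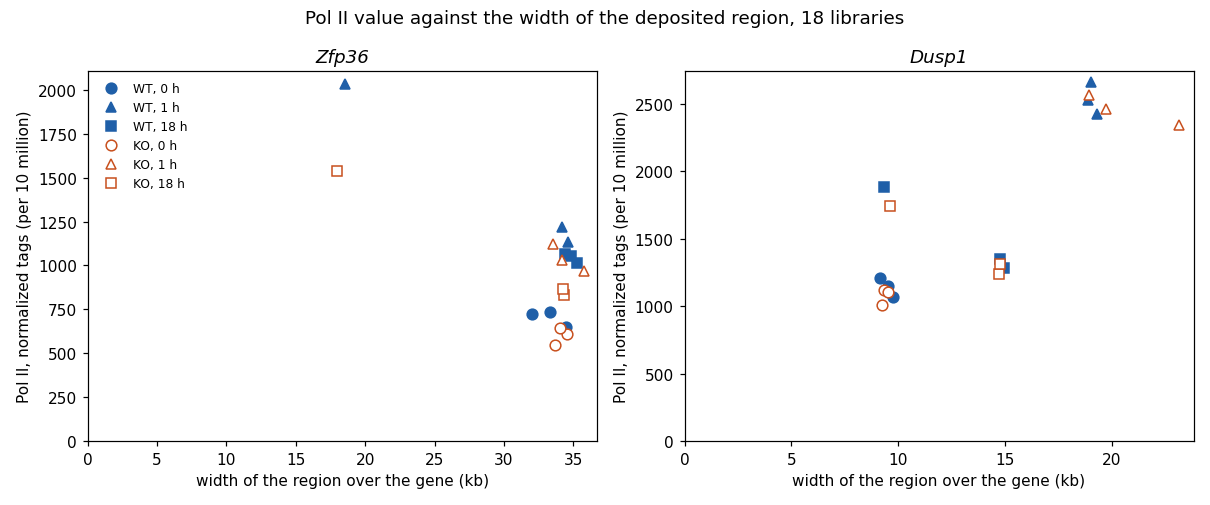
Pol II value of Zfp36 and Dusp1 in normalized tags per 10 M tags (y axis, from 0) against the width in kb of the widest region over the gene (x axis, from 0), 1 point for each of 18 libraries. The 2 libraries with Zfp36 regions under 20 kb hold its highest values, 1536 and 2034, and the 18 h libraries with the narrow Dusp1 region (9.34 and 9.62 kb) hold the highest 18 h values.

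At rest no member was called between the genotypes in limma: 0 of 10, against 6.67% of all genes, and 1 of the 10, Socs3, had an unadjusted p under 0.05. Socs3 had 16.3, 25.4 and 28.6 in WT and 17.6, 11.9 and 16.0 in KO, groups that overlapped, with -0.40 ± 0.13 (SE, adjusted p = 0.077). Zfp36 was the only member without overlap at rest, with 646, 732 and 722 in WT and 609, 641 and 548 in KO, where 20.6% of all genes did not overlap.

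At 1 h the genotypes differed at 5 of 10 members in the values as deposited, against 44.7% of all genes tested. Dusp5, Zfp36l1 and Zfp36l2 were higher in KO, and Dusp2 and Socs3 lower. The median gene was itself 0.24 higher in KO. After each library was centred on its median gene, 1 member was higher (Dusp5) and 6 were lower (Zfp36, Dusp2, Socs1, Socs3, Cish and Zc3h12a), beside 14.3% and 21.9% of all genes. Zfp36 as deposited was -0.18 without WT replicate 2, a library with a narrow region. Under quantile normalization 1 member was higher (Dusp5) and 4 were lower (Dusp2, Socs1, Socs3 and Cish), beside 15.2% and 14.5%. The summed Pol II of the 8 macrophage markers was also lower in KO at 1 h, 24324 to 25203 against 31940 to 33101 in WT, and at 18 h, 28478 to 30694 against 35510 to 37079, and its part in these differences was not tested. Most of that sum was Adgre1, with a median of 17637 over the 18 libraries where the other 7 had medians of 529 to 3389.

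Dusp2 was the clearest of the lower genes. Its values were 1648, 1623 and 1769 in WT and 1217, 1190.3 and 1197 in KO, well apart, with a log2 change of -0.48 ± 0.08 (SE, adjusted p = 0.00011) and -0.74 ± 0.08 (SE, adjusted p = 1.8e-06) after centring. Dusp5, the ERK phosphatase, went the other way, with 1204, 1185 and 1187 in WT and 1722, 1579 and 1670.0 in KO, 0.47 ± 0.09 (SE, adjusted p = 0.00075) as deposited and 0.21 ± 0.08 (SE, adjusted p = 0.045) after centring. The Dusp5 regions were 20.6 to 21.1 kb wide in all 6 libraries at 1 h.

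Socs3 had 2584, 2529 and 2645 in WT and 2123, 1904 and 1949 in KO at 1 h, -0.38 ± 0.13 (SE, adjusted p = 0.025). No KO library reached the lowest WT library, but the call was lost without replicate 2 (-0.36, adjusted p = 0.14) or replicate 3 (-0.34, adjusted p = 0.13) of each group. Cish, with 519, 511 and 560.0 in WT and 413, 425 and 415 in KO, did not overlap between genotypes but was not called as deposited (-0.34 ± 0.14 SE, adjusted p = 0.06), and was called after centring (-0.60 ± 0.12 SE, adjusted p = 0.0011). The same held for Socs1, at -0.17 ± 0.11 (SE, adjusted p = 0.22) and -0.44 ± 0.13 (SE, adjusted p = 0.012) after centring.

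The higher values of the Zfp36 paralogues in KO at 1 h depended on the scale. Zfp36l1 had 512, 504 and 513 in WT and 665, 610.3 and 606 in KO, 0.29 ± 0.08 (SE, adjusted p = 0.0054) as deposited and 0.03 ± 0.06 (SE, adjusted p = 0.73) after centring. Zfp36l2 had 226, 221 and 235 in WT and 319.6, 308 and 298 in KO, 0.42 ± 0.08 (SE, adjusted p = 0.00046) and then 0.16 ± 0.08 (SE, adjusted p = 0.15). Both lost the call on centring. Dusp1 and Zc3h12a overlapped between the genotypes at 1 h, with Dusp1 at 2345, 2566 and 2466 and Zc3h12a at 2226, 2105 and 2140.3 in KO.

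At 18 h 2 members were called, both lower in KO, against 20% of all genes. Zfp36l1 had 513, 501 and 515 in WT and 367, 375 and 331 in KO, -0.50 ± 0.08 (SE, adjusted p = 0.00013), and stayed called after centring at -0.37 ± 0.06 (SE, adjusted p = 0.00014). Zfp36l2 had 779, 783 and 958 in WT and 693, 662 and 678 in KO, -0.30 ± 0.08 (SE, adjusted p = 0.012), and was not called after centring (-0.17 ± 0.08 SE, adjusted p = 0.18) or without WT replicate 3, whose 958 is the highest of the 6 (-0.20, adjusted p = 0.077). As deposited, Zfp36l1 was thus above WT at 1 h and below it at 18 h. Socs3 at 729, 704 and 629 in KO overlapped with WT (-0.30 ± 0.13 SE, adjusted p = 0.11). Zc3h12a did not overlap, at 1476, 1449.7 and 1493 in WT and 1444, 1341 and 1324 in KO, and was not called. The 18 h values of Dusp2, Dusp5 and Cish overlapped between the genotypes.

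**Figure D3:**
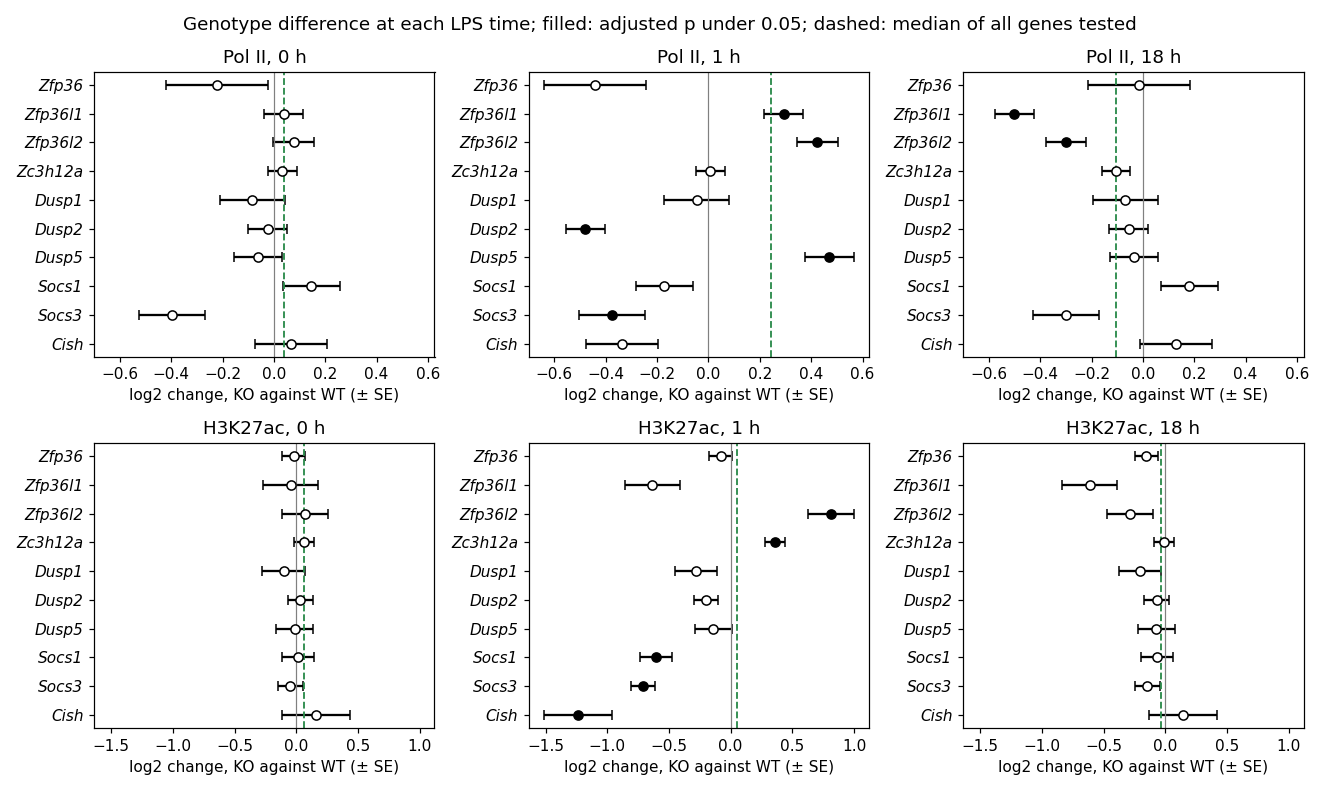
Log2 change between KO and WT (x axis, ± SE) for each gene (y axis) at 0, 1 and 18 h, for Pol II (top) and H3K27ac (bottom). Filled points have an adjusted p under 0.05 in limma, and the dashed line is the median of all genes tested, 0.24 for Pol II at 1 h.

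The response to LPS itself differed between the genotypes at 3 members at 1 h and at 2 at 18 h, where 17.9% and 13.9% of all genes did. This interaction subtracts the LPS change of WT from that of KO. At 1 h it was 0.53 ± 0.13 (SE, adjusted p = 0.01) for Dusp5, 0.35 ± 0.11 (SE, adjusted p = 0.04) for Zfp36l2 and -0.46 ± 0.11 (SE, adjusted p = 0.0073) for Dusp2, and at 18 h -0.54 ± 0.11 (SE, adjusted p = 0.0026) for Zfp36l1 and -0.38 ± 0.11 (SE, adjusted p = 0.032) for Zfp36l2. Leaving out replicate 1, 2 or 3 of each group left 1, 0 and 1 of the 3 calls at 1 h, where 15.6%, 4.48% and 8.35% of all genes were called, and 1, 1 and 0 of the calls at 18 h, where 7.43%, 7.47% and 6.93% were. Over these fits Dusp5 ran from 0.49 to 0.60, Zfp36l2 from 0.31 to 0.39 and Dusp2 from -0.53 to -0.40 at 1 h. After centring, 0 members had a higher and 4 a lower interaction at 1 h (Zc3h12a, Dusp2, Socs1 and Cish), beside 6.05% and 13.7% of all genes, and as deposited these shares were 13.8% and 4.16%. The centred values were 0.29 ± 0.11 (SE, adjusted p = 0.075) for Dusp5 and -0.70 ± 0.11 (SE, adjusted p = 0.00035) for Dusp2. Socs3 rose 110.3-fold in WT and 131-fold in KO by the group means. Its resting values were near the limit of detection and overlapped, and its interaction was 0.02 ± 0.18 (SE, adjusted p = 0.95).

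H3K27ac at the starts followed Pol II in direction at some members and not at others. At 1 h in WT, 6 members were called higher and 1 lower, where 25.9% and 29.1% of all genes were. Socs3 went from 21.2, 22.9 and 21.5 to 591, 672 and 617 normalized tags (4.32 ± 0.10 SE, adjusted p = 6e-14), and Cish from 30.4, 25.7 and 40.5 to 673, 655 and 626 (3.98 ± 0.27 SE, adjusted p = 1.2e-08). Both had almost no acetylation at rest. Dusp2 had 275, 273 and 277 at rest and 733, 671 and 899 at 1 h, and Socs1 267, 259 and 280.4 and 592, 568 and 655. Socs1 thus gained 2.25-fold in H3K27ac at a time when its Pol II had gained 1.78-fold. The Zc3h12a and Zfp36 gains were small, 0.28 ± 0.08 (SE, adjusted p = 0.0065) and 0.29 ± 0.09 (SE, adjusted p = 0.014).

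Zfp36l2 lost acetylation along with Pol II, from 1682, 1799.8 and 1729 to 455, 415 and 453 in WT (-1.95 ± 0.19 SE, adjusted p = 3.8e-07). Zfp36l1 had lost Pol II at 1 h, but its H3K27ac in WT, 594, 594 and 751 at rest and 622, 601 and 602 at 1 h, overlapped. Dusp5 also overlapped, with 207, 197 and 229.6 and 192, 199.8 and 166. In KO at 1 h 5 members were called higher and 2 lower, beside 20.6% and 26% of all genes, and without KO replicate 1 the counts were 5 and 3, beside 30.5% and 31.7%.

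At 18 h in WT 7 members were called higher and 2 lower (all genes 23.4% and 26.3%), and in KO 6 and 2 (all genes 18.4% and 34.3%). Without KO replicate 1 the KO counts were 7 and 2 (all genes 21.7% and 46.7%). Under quantile normalization they were 4 and 2 in both genotypes at 18 h (24.7% and 26.7% of all genes for WT, 24.7% and 27.8% for KO), while WT had 4 and 1 after 1 h (all genes 27.8% and 30.2%), and Zfp36 and Zc3h12a lost their calls in each of these. Socs3 kept its mark at 631, 601 and 660.2 in WT, overlapping its 1 h values, while its Pol II had dropped 3.04-fold between those times. Cish stood at 144, 163 and 179, below its 1 h values and above rest. Socs1 was at 1003, 969 and 884, above its 1 h values (1.79 ± 0.13 SE, adjusted p = 1.6e-08 against 0 h). Dusp5 was at 116, 107 and 126, 1.81-fold below rest in H3K27ac and 15.0-fold below in Pol II. The Dusp5 fall in H3K27ac was not seen within 1000 bp of its start, where the change was -0.06 in WT and -0.18 in KO. Dusp1 rose by 0.48 ± 0.17 (SE, adjusted p = 0.028) in WT, and with GENCODE gene models, which place its start far upstream, the change was -0.19. That call was also lost with median centring (adjusted p = 0.056).

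**Figure D4:**
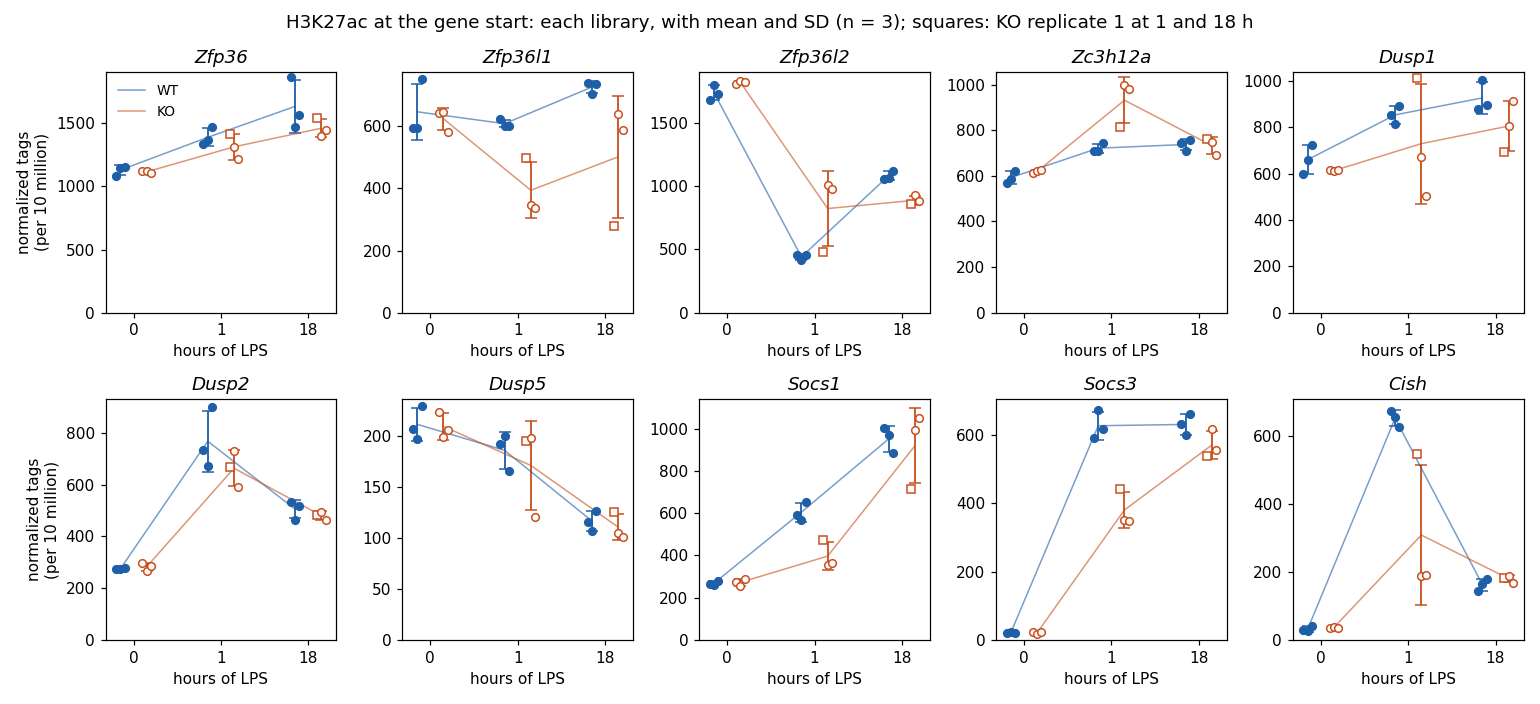
H3K27ac within 2500 bp of each gene start, in normalized tags per 10 M tags (y axis, from 0), against hours of LPS (x axis, categories). Points are libraries, filled for WT and open for KO, bars are mean ± SD over 3 libraries, and squares mark KO replicate 1 at 1 and 18 h. At Cish the KO values at 1 h are 547, 186 and 191, with replicate 1 the highest.

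Between the genotypes at rest, limma called no member in H3K27ac (0 of 10, and 0 with an unadjusted p under 0.05, against 0.685% of all genes). Only Zfp36l2 did not overlap at rest, with 1682, 1799.8 and 1729 in WT and 1809, 1831 and 1823 in KO, where 38.4% of all genes did not overlap. At 1 h 5 members were called, against 18.1% of all genes: Zfp36l2 and Zc3h12a higher in KO, and Socs1, Socs3 and Cish lower. Without KO replicate 1, 7 were called, 2 higher and 5 lower, beside 35.8% and 24.4% of all genes (60.2% in all), the added ones being Zfp36l1 and Dusp1. This library was singled out for lying close to WT, so leaving it out favours a larger difference. The H3K27ac calls and p-values without it, here and below, are therefore a description. Depth after 1 h was 13.5 to 20.9 M for WT against 23.6 to 47.5 M for KO, and the part of depth in these differences was not tested. None was called when replicate 2 or replicate 3 of every group was left out, which leaves KO replicate 1 as 1 of 2 libraries.

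Cish showed how far the KO libraries at 1 h differed from each other. It had 673, 655 and 626 in WT and 547, 186 and 191 in KO. KO replicate 1 lay just under the WT range and the others far below it, and the log2 change was -1.24 ± 0.27 (SE, adjusted p = 0.0087) with it and -1.73 ± 0.12 (SE, adjusted p = 2e-08) without it. Zfp36l2 had 455, 415 and 453 in WT and 479, 1011 and 978 in KO, 0.81 ± 0.19 (SE, adjusted p = 0.01) with replicate 1 and 1.16 ± 0.06 (SE, adjusted p = 1.8e-09) without. Here too replicate 1 was close to WT, and the other KO libraries stood far above it.

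Socs3 had 591, 672 and 617 in WT and 441, 351 and 349 in KO (-0.71 ± 0.10 SE, adjusted p = 0.00064, and -0.82 ± 0.08 SE, adjusted p = 4.3e-07 without KO replicate 1), and every KO library was below every WT library. When regions below a common density were dropped the change was again -0.71, but with an SE of 0.41 the call was lost (adjusted p = 0.23). The 1 h regions of Socs3 were all above that density, and its resting regions lay on either side of it. KO was below WT in all libraries at Socs1 too, with 592, 568 and 655 in WT and 474, 354 and 362 in KO (-0.61 ± 0.13 SE, adjusted p = 0.0073, and -0.74 ± 0.07 SE, adjusted p = 6.1e-07 without KO replicate 1). Zc3h12a was above WT in all 3 KO libraries, 816, 999.6 and 981 against 709, 711 and 745 (0.36 ± 0.08 SE, adjusted p = 0.0085, and 0.45 ± 0.06 SE, adjusted p = 8.7e-06 without KO replicate 1), while its Pol II overlapped between the genotypes. Zfp36l1 was 498, 348 and 337 in KO against 622, 601 and 602 in WT, -0.64 ± 0.22 (SE, adjusted p = 0.055) with replicate 1 and -0.81 ± 0.09 (SE, adjusted p = 1.5e-06) without it. No KO library overlapped WT there, on the low side, while the Pol II of Zfp36l1 as deposited was higher in KO. Dusp1 in KO ran from 505 to 1012 over its 3 libraries and overlapped with WT, -0.28 ± 0.17 (SE, adjusted p = 0.25) with replicate 1 and -0.54 ± 0.11 (SE, adjusted p = 0.00045) without it. Dusp2 overlapped as well (-0.20 ± 0.10 SE, adjusted p = 0.15, and -0.21 ± 0.11 SE, adjusted p = 0.1 without KO replicate 1) although its Pol II was lower in KO.

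At 18 h no member was called between the genotypes in H3K27ac (0 of 10, all genes 3.18%). By unadjusted p under 0.05 it was 1 of 10, and without KO replicate 1 it was 0 higher and 1 lower, beside 4.36% and 14.5% of all genes. Zfp36l1 had 278, 639 and 587 in KO and 739, 704 and 735 in WT, with KO replicate 1 as the lowest, -0.61 ± 0.22 (SE, adjusted p = 0.14) with it and -0.24 ± 0.09 (SE, adjusted p = 0.064) without it. Zfp36l2 had 856, 926 and 883 in KO, below 1057, 1068 and 1123 in WT, and was called only without replicate 1 (-0.26 ± 0.06 SE, adjusted p = 0.011). The interaction was called for 1 member at 1 h, Socs3 at -0.67 ± 0.14 (SE, adjusted p = 0.045), which was -0.18 and not called when regions below a common density were dropped, and for 0 at 18 h, beside 0.65% and 0.504% of all genes. At 18 h 0 members had an unadjusted p under 0.05. Without the 2 libraries labelled KO replicate 1 at 1 and 18 h it was called for 7 members at 1 h and 1 at 18 h, where 47.9% and 14.6% of all genes were, with -0.77 ± 0.10 (SE, adjusted p = 3.2e-05) for Socs3, -1.90 ± 0.16 (SE, adjusted p = 5.2e-07) for Cish and 1.09 ± 0.08 (SE, adjusted p = 2.4e-07) for Zfp36l2.

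Other genes of the same pathways were counted between the genotypes in Pol II at 1 h, first as deposited and then after centring each library on its median gene, beside 37.2% of all genes higher and 7.51% lower as deposited, and 14.3% and 21.9% after centring. Of the other MAP kinase phosphatases, 8 of 9 were tested, and 8 were higher in KO, or 3 after centring, with 0 lower on either scale and Dusp8, a phosphatase of JNK and p38, at 1.45 (adjusted p = 0.0013). Only 7 of the list were tested for 1 h against 0 h in WT, so not all 8 passed the filter in WT at 1 h. A gene that passes it through KO alone can only come out higher. In H3K27ac at 1 h the same list had 0 higher and 1 lower of 8 tested, Dusp14 at -1.12 (adjusted p = 0.0495), beside 10.9% and 7.12% of all genes. It was not counted without KO replicate 1, whose label is in doubt. Sprouty and Spred genes, which restrain the Ras-MAPK path, were higher at 3 and lower at 0 of 4 tested, or 2 and 1 after centring, with Spry2, an inhibitor of growth factor signals to ERK, at 0.89 (adjusted p = 8.9e-07). Other SOCS genes were higher at 1 and lower at 0 of 4, or 0 and 1 after centring. Other RNA decay factors were called at 0 of 4 in limma, with 0 at an unadjusted p under 0.05, and at 1, lower, after centring.

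Among the kinases these proteins act on, 2 were higher and 2 lower of 9, or 0 and 3 after centring, with Mapk14, the p38 kinase that Dusp1 inactivates, at 0.36 as deposited (adjusted p = 0.00059). In H3K27ac at 1 h, with KO replicate 1 included, Mapk14 was lower in KO (-0.64, adjusted p = 0.0013 in limma). Its Pol II at 18 h was lower too (-0.66, adjusted p = 2.5e-06). NF-kB feedback genes were higher at 3 and lower at 3 of 10, or 1 and 6 after centring. JAK-STAT feedback genes were higher at 1 and lower at 1 of 8, or 0 and 3, with Usp18, which removes ISG15 and dampens interferon receptors, at -0.93 (adjusted p = 1.5e-05). As deposited, Usp18 was already lower in KO at rest (-0.45, adjusted p = 0.032 in limma) and was higher in KO at 18 h (0.40, adjusted p = 0.027). Of 10 genes whose mRNAs the Zfp36 and Zc3h12a proteins can destabilize, 6 were lower and 0 higher in KO at 1 h, or 8 and 0 after centring, with a median of -0.35 as deposited and Ptgs2, the inducible prostaglandin synthase, at -0.89 (adjusted p = 0.0011). At rest the same list already had 5 lower and 0 higher of 8 tested and a median of -0.52, where 6.67% of all genes were called, and its interaction was 2 higher and 1 lower of 10 at 1 h with a median of 0.03 (all genes 13.8% and 4.16%), and 7 higher and 0 lower of 9 at 18 h with a median of 0.79 (all genes 4.63% and 9.27%). At 18 h, where 7.27% of all genes were higher and 12.7% lower (14.4% and 7.7% after centring), that list had 4 higher and 0 lower of 7 tested, or 5 and 0 after centring, with Il6 at 1.85 (adjusted p = 3.1e-10). The other MAP kinase phosphatases had 0 higher and 1 lower of 7 at 18 h on both scales.

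The genes whose Pol II was most like each member's over the 18 libraries are a description, since libraries of a group share their treatment. Dusp2 was most like Tnfaip2 (r = 0.996) and Ltb (r = 0.993), and Cish like Diaph2 (r = 0.995) and Tnfaip2 (r = 0.995). Socs3 followed Slfn2 (r = 0.997) and Mcoln2 (r = 0.995), and Socs1 Perm1 (r = 0.994) and Lgals9 (r = 0.994). Dusp5 had Plaur (r = 0.997) and Anxa3 (r = 0.995), Zc3h12a had Dpf2 (r = 0.994) and Ptprj (r = 0.992), and Dusp1 had Lztfl1 (r = 0.964) and Hcls1 (r = 0.963). Zfp36l2 was closest to Ucp2 and Lonrf3 (both r = 0.995) and Zfp36l1 to Cdk20 (r = 0.990) and Hexa (r = 0.989). Zfp36 had lower values with Ifitm3 (r = 0.904) and Plekhg2 (r = 0.897), and Plekhg2 is a neighbour on chromosome 7. Among the members, Dusp2 and Cish were most alike (r = 0.995), and Zfp36l2 and Dusp2 most opposite (r = -0.980).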

How the data were processed

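Pol II and H3K27ac were measured in 18 libraries each, beside 6 inputs. Per the study's methods and the labels, the authors used Skewer for trimming, HISAT2 2.1.0 for alignment to mm10 and HOMER for regions. The deposited signal is, per the file headers, tags per 10 M tags (M for mega) in regions found without input in 500 bp windows at a Poisson p of 0.001 and stitched within 1000 bp. A region absent from a library counts as 0, and such a gene is listed at 0. Whole reads could not be recovered, so no count test was run.

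From these regions, tags were shared by overlap over each RefSeq Select gene with 500 bp on either side (Pol II) or 2500 bp around its start (H3K27ac) with Python 3.11.15. A wide region therefore spreads its tags over its neighbours. In limma 3.58.1 (R 4.3.3), log2(value + 10) was fitted with 6 group means per antibody and an intensity trend, over genes with a value above 0 in 2 or more libraries of either group, with Benjamini-Hochberg adjustment over all of them. The procedure was tested on simulated data. The interaction subtracts the LPS change of WT from that of KO. Replicate numbers did not pair the samples, so no block was used. Groups came from the labels.

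Named genes were the 10 members, Nr4a1, the 2 genes most like each member, cell type markers, and the called gene of largest change in each pathway list. The members and lists were chosen with earlier results of these data known. Alternatives were a pseudocount of 1, no filter, median centring, quantile normalization, windows of 500 bp (Pol II) or 1000 bp (H3K27ac) around the start, input subtraction, a common density floor, an absolute log2 change over 1, a replicate block, GENCODE vM21 gene models and leaving out libraries. The GENCODE models and the single Pol II libraries left out were chosen after seeing the data. The H3K27ac libraries labelled KO replicate 1 at 1 and 18 h were singled out by their correlations in these data.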

Additional observations from a re-analysis of the deposited data

Results flagged for a closer look

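Each result here is a response to LPS that differed between the genotypes by a test of the difference itself, the KO change less the WT change. In Pol II at 1 h it was 0.53 for Dusp5, 0.35 for Zfp36l2 and -0.46 for Dusp2. After each library was centred on its median gene Dusp5 (0.29, adjusted p = 0.075) and Zfp36l2 were not called, and leaving out replicate 1, 2 or 3 of each group left 1, 0 and 1 of the 3 calls, where 15.6%, 4.48% and 8.35% of all genes were called. In Pol II at 18 h it was -0.54 for Zfp36l1 and -0.38 for Zfp36l2. In H3K27ac at 1 h it was -0.67 for Socs3. The Zfp36l2 call at 18 h was lost with median centring (-0.22), quantile normalization, the narrow window, input subtraction, without replicate 1, 2 or 3 of each group or without WT replicate 3 at 18 h, and kept without KO replicate 1 at 18 h (-0.39, adjusted p = 0.048), and the Zfp36l1 call was lost without replicate 3 of each group (-0.44, adjusted p = 0.10). The Socs3 call (adjusted p = 0.045) was lost with median centring, a pseudocount of 1, the narrow window, the replicate block, without replicate 2 or 3 of each group, or with the common density floor (-0.18), and kept without the libraries labelled KO replicate 1 at 1 and 18 h (-0.77, adjusted p = 3.2e-05), whose labels are in doubt.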

How the results depend on the processing

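Over the members' called changes, 1265 of 1364 alternative values kept their direction and call, 95 kept the direction without the call and 4 reversed. Of those 4, quantile normalization turned the 18 h Pol II change of Zc3h12a to -0.032 in WT and -0.083 in KO, a window of 500 bp around the start turned the 1 h Pol II change of Socs1 in KO to -0.17, and GENCODE models turned the 18 h H3K27ac change of Dusp1 in WT to -0.19. The cause was not tested for these, nor for the counts below.

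In Pol II, members called between KO and WT at 0 h became 1 with median centring, quantile normalization, the narrow window, input subtraction or GENCODE models (all genes 8.77%, 11.1%, 2.54%, 15.5% and 6.88%), and ranged from 0 to 1 with replicates left out. At 1 h the count became 0 when an absolute log2 change over 1 was asked (all genes 4.91%), and ranged from 4 to 6 with replicates left out. At 18 h it became 0 under that rule (all genes 3.08%) and 1 with median centring (all genes 22.1%). With replicates left out it ranged from 1 to 3 (1 without WT replicate 3 at 18 h). The 1 h response in KO had 6 under that rule (all genes 46.4%). The 1 h interaction had 0 under that rule (all genes 4.36%) and 0 to 2 with replicates left out. The 18 h interaction had 0 under that rule (all genes 3.76%). It had 1 with median centring (all genes 14.3%), quantile normalization (all genes 15.6%), the narrow window or input subtraction. With replicates left out it had 0 to 2 (1 without WT replicate 3 at 18 h).

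In H3K27ac, KO against WT at 1 h had 1 member over an absolute log2 change of 1 (all genes 3.35%), and 0 to 7 with replicates left out, while all genes went from 0.22% to 60.2%. At 18 h that range was 0 to 1, where 4.36% of all genes were higher and 14.5% lower without KO replicate 1. The same rule left 3 members at 18 h in WT, 4 at 1 h in KO and 4 at 18 h in KO (all genes 14.7%, 10.8% and 16.4%). The 1 h interaction had 0 under that rule (all genes 0.241%), a pseudocount of 1, median centring, the narrow window or the density floor. With replicates left out it had 0 to 7, and without KO replicate 1 the share of all genes was 47.9%. The 18 h interaction had 0 to 1 with replicates left out (all genes 14.6% without KO replicate 1).

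Same-numbered samples did not deviate together: 1 of 27 pairs in Pol II (r from -0.056 to 0.116) and 0 of 27 in H3K27ac (-0.425 to 0.085) exceeded 0.1. With the replicate block the H3K27ac interaction at 1 h had 0 members called instead of 1, and no other count of members left its side by over 1.5 times. The Pol II regions of Socs3 and Cish at rest and of Dusp5 at 18 h cover a small share of the gene. The part of depth in these low values was not tested.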
